A study of Mus musculus with 6 samples.

Results

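The miRNAs of striated muscle were followed in a small RNA library of mouse liver. The set was defined by name as every mouse mature entry of miR-1a, miR-1b, miR-206, miR-133a, miR-133b, miR-133c, miR-208a, miR-208b and miR-499, both arms and all copies. This gave 18 distinct sequences out of 1963 distinct mouse sequences in the table. The set was chosen with the high levels of miR-1a-3p and miR-206-3p in this library already known, so the levels below are descriptions and carry no test.

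The study injected mice with AAV9, a serotype of adeno-associated virus that serves as a gene delivery vector. In both groups the vector expressed Cre recombinase from the promoter of Tnnt2, the cardiac troponin T gene, a promoter used to direct expression to heart muscle cells. The Cre group received AAV-Tnnt2-Cre and the Cre-miR122 group received AAV-Tnnt2-Cre-miR122. The labels do not state what the miR122 element is. The sources used here give no strain, age, dose or time after injection. There are 6 labelled livers, of which Cre-miR122 has replicates 1, 2 and 4 and Cre has replicates 10, 11 and 12. The counts used are those of Cre-miR122 replicate 2, and 5 libraries were not used here. All values therefore come from a single library without a replicate or a control library.

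The listed miRNA entries have 30721 distinct sequences, and 8163802 reads of the library were counted for them, of which 6661069 were for mouse entries. Reads that matched no listed entry are not included. Parentheses give exact 95% intervals (Clopper-Pearson for shares, and for ratios the binomial interval given the sum of both counts). They cover counting error only, since reads without molecular identifiers include PCR copies. A count of 0 was taken as at most 3 reads, or 4.50e-05% of mouse reads. Ratios given as "at least" divide the observed count by these 3 reads and do not cover counting error in that count. "End forms" are reads counted for another species' entry of the same miRNA name that matches the mouse hairpin exactly but starts or ends at another base. Values "with end forms" add these reads, and their shares are of the 8032202 mouse reads with end forms of all miRNAs.

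miR-1 and miR-133 are made together from bicistronic precursors in heart and skeletal muscle, where miR-1 favours muscle differentiation and miR-133 acts on proliferation of precursor cells. miR-206 shares the seed of miR-1, the bases that pair with target mRNAs, and is largely restricted to skeletal muscle. Its gene lies in a cluster with that of miR-133b. miR-208a, miR-208b and miR-499 are encoded in introns of myosin heavy chain genes, are known as the myomiRs of the heart and slow muscle fibres, and regulate the choice of myosin isoforms. These miRNAs are known mainly from muscle, and which cells of the liver library made them was not tested.

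The mature sequences show how the groups divide by seed (bases 2 to 8, in capitals). They are RefSeq sequences on GRCm38.p6, written 5′ to 3′, and 11 of the 18 members had an entry there.
miR-206-3p: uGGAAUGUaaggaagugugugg
miR-133b-3p: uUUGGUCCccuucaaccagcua
miR-208a-3p: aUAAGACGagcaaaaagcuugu
miR-208b-3p: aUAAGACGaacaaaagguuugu
miR-499-5p: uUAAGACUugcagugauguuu
miR-1a-1-5p: aCAUACUUcuuuauaugcccaua
miR-206-5p: aCAUGCUUcuuuauauccucaua

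miR-1a-3p has the seed GGAAUGU of miR-206-3p and differs from it at 4 of 22 bases, all after the first 10. miR-133a-3p has the seed UUGGUCC of miR-133b-3p and differs from it only at the last of 22 bases. miR-133c carries that seed as well. miR-208a-3p and miR-208b-3p share the seed UAAGACG and differ at 3 of 22 bases, while miR-499-5p differs from them at 1 seed base. miR-1b-3p, despite its name, has another seed, GGGUACA, and was not counted with the miR-1 and miR-206 seed family. G and C made up 27.3% of the bases of miR-1a-3p, 45.5% of miR-206-3p, 54.5% of miR-133a-3p and 33.3% of miR-499-5p.

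On mm10 (GRCm38), the members came from 11 annotated hairpins. Mir1a-1 (chromosome 2, 180389048 to 180389124, plus strand) and Mir133a-2 (chromosome 2, 180398379 to 180398482, plus strand) lie 9254 bases apart, in no other annotated gene. Their second copies, Mir133a-1 (chromosome 18, 10782909 to 10782976, minus strand) and Mir1a-2 (chromosome 18, 10785481 to 10785552, minus strand), lie 2504 bases apart in introns of the noncoding gene Mir133a-1hg. Mir1b overlaps Mir1a-2 on the opposite strand. Mir206 (chromosome 1, 20679010 to 20679082, plus strand) and Mir133b (chromosome 1, 20682769 to 20682887, plus strand) lie 3686 bases apart in exons of the noncoding gene Gm28653. Mir208a (chromosome 14, 54949060 to 54949142, minus strand) lies in an intron of Myh6, the alpha myosin heavy chain gene of heart. Mir208b (chromosome 14, 54975700 to 54975776, minus strand) lies in an intron of Myh7, the beta form of heart and slow muscle. Mir499 (chromosome 2, 155622880 to 155622958, plus strand) lies in an intron of Myh7b. Mir133c (chromosome 2, 29475215 to 29475294, minus strand) lies opposite an intron of Med27 and near none of the other members.

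The 3 groups stood at very different levels, and the miR-1 and miR-206 seed family held nearly all of the muscle reads. mmu-miR-1a-3p and mmu-miR-206-3p together had 1049125 reads, or 15.75% of mouse reads (15.72 to 15.78). The miR-133 family (mmu-miR-133a-3p, mmu-miR-133b-3p and mmu-miR-133c) had 935 reads, or 0.0140% (0.0132 to 0.0150). The myosin-hosted miRNAs (mmu-miR-499-5p with the pair mmu-miR-208a-3p and mmu-miR-208b-3p) had 257 reads, or 0.00386% (0.00340 to 0.00436). The order was the same with end forms, at 14.4%, 0.145% and 0.00472%. Reads of the miR-1 and miR-206 seed family outnumbered those of the miR-133 family 1122 to 1 (1052 to 1198), and 99.2 to 1 (97.4 to 101.0) with end forms. Reads of the miR-133 family outnumbered those of the myosin-hosted miRNAs 3.64 to 1 (3.17 to 4.19), and 30.7 to 1 (27.7 to 34.1) with end forms. The 11631 reads of the miR-133 family with end forms leave out 1164 reads that match both miR-133a-3p and miR-133b-3p. With these the family had 12795 reads. Its share and its ratio to the myosin-hosted miRNAs would then be higher, and the seed family would outnumber it by less than 99.2 to 1.

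**Figure D1:**
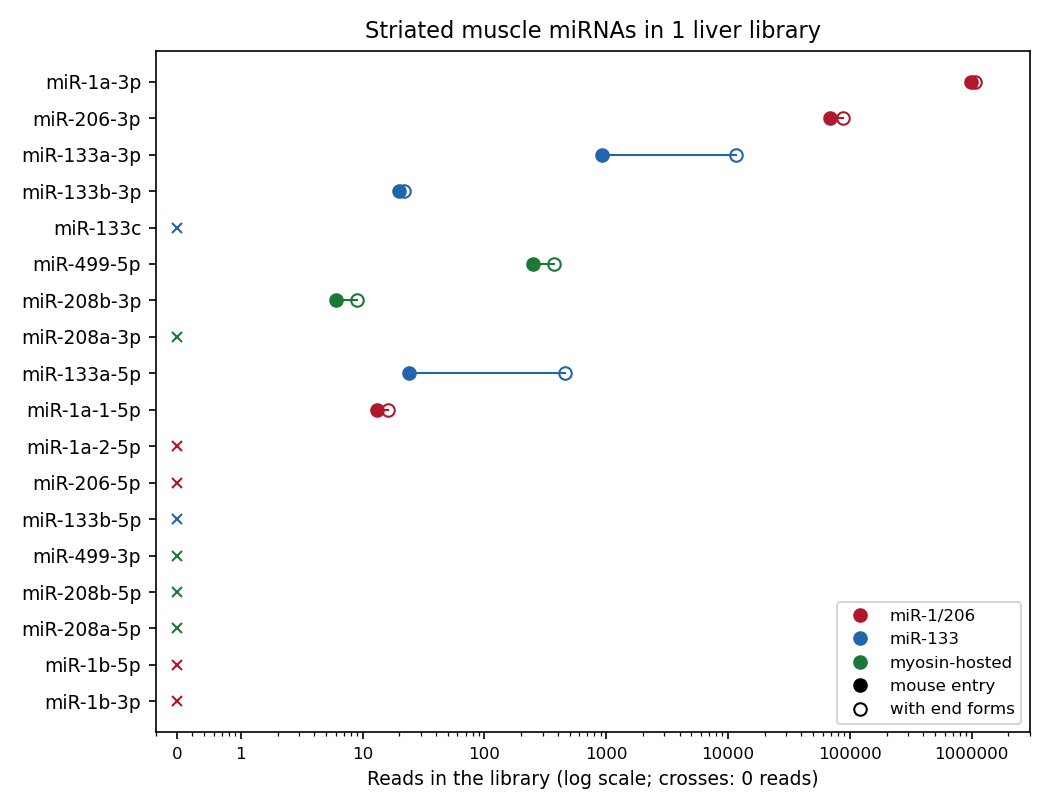
Reads of each of the 18 muscle miRNA sequences in Cre-miR122 replicate 2, on a log axis, as counted for the mouse entry (filled) and with end forms added (open). Crosses mark 0 reads; miR-1a-3p and miR-206-3p lie far to the right, and miR-133a-3p and miR-133a-5p move most when end forms are added.

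Mouse-entry reads were found for 8 of the 18 members, against 27.8% of all 1963 mouse sequences, and the median was 0 reads both over the members and over all mouse sequences. The 10 members at 0 were miR-133c, miR-208a-3p, both miR-1b sequences and the opposite arms miR-1a-2-5p, miR-206-5p, miR-133b-5p, miR-208a-5p, miR-208b-5p and miR-499-3p. None of these gained a read from end forms. A high level was thus a property of 2 sequences of the set, and most of its sequences were absent or rare at this depth.

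miR-1a-3p had 980271 reads and ranked 2 among the mouse sequences. The next above it was miR-148a-3p with 3856275 reads and the next below was the hepatocyte miRNA miR-122-5p with 236027. With end forms miR-122-5p had 685102 reads, against 1065891 of miR-1a-3p, so the distance between them was much smaller. miR-1a-3p made up 93.3% of the reads of the 18 members, or 91.4% with end forms. Its mature sequence is the same from both copies, so the 980271 reads cannot be divided between chromosomes 2 and 18. The opposite arms do differ between the copies, at 2 of 23 bases. miR-1a-1-5p, printed above, had 13 reads, or 16 with end forms, and miR-1a-2-5p had 0 by either count. The opposite-arm reads that can be assigned to a copy therefore all came from the chromosome 2 copy, but with a bound of 3 reads on the other they show at least 5.33 times more reads for it. This applies to the opposite arm only.

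miR-206-3p had 68854 reads, or 87964 with end forms, and ranked 11. It stood between miR-192-5p, a miRNA of liver and gut, with 72085 reads, and miR-27b-3p with 60863. With end forms miR-192-5p had 82278, below miR-206-3p. miR-1a-3p exceeded miR-206-3p by 14.2 reads to 1 (14.13 to 14.35), and 12.1 to 1 (12.03 to 12.20) with end forms. miR-206-3p made up 6.56% of the reads of the 18 members, and the next, miR-133a-3p, made up 0.0871%, or 0.995% with end forms. By mouse entries both members with this seed were thus among the 11 highest mouse sequences, and with end forms miR-206-3p ranked 14.

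**Figure D2:**
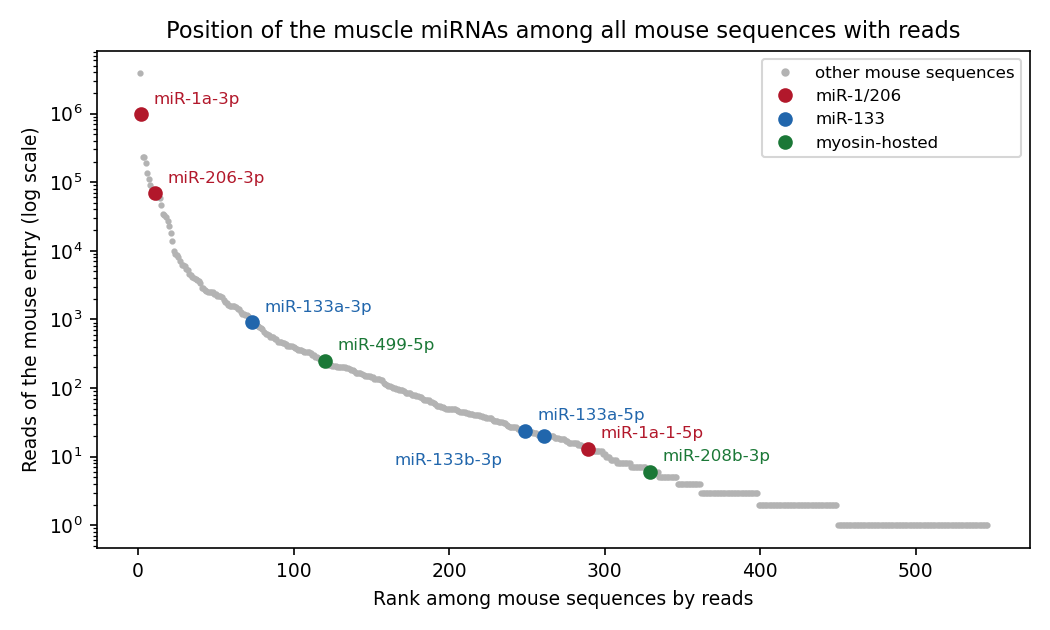
Mouse-entry reads (log axis) of the 546 mouse sequences with at least 1 read, against their rank, with the muscle miRNAs coloured by group. miR-1a-3p at rank 2 and miR-206-3p at rank 11 lie in the steep part of the curve. The other 6 members with reads lie between ranks 73 and 329, where tied sequences are placed in order of name.

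The miR-133 family is encoded beside the 2 abundant miRNAs but was far lower. miR-133a-3p had 915 reads at rank 73, between miR-128-3p with 1008 and miR-203-3p with 899. With end forms it had 11609 reads, 12.7 times as many, and ranked 28. miR-1a-3p had more reads than its cluster partner by 1071 to 1 (1004 to 1144), a ratio that was 91.8 to 1 (90.2 to 93.5) with end forms. The choice of counting therefore moved this ratio far beyond its counting error.

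miR-133b-3p had 20 reads, or 22 with end forms, against 87964 of its partner miR-206-3p, which is 3998 to 1 (2641 to 6380). A further 1164 reads, over 4 forms, matched both miR-133a-3p and miR-133b-3p because they end before the 1 base that separates them. These were given to neither. Another 81 reads matched miR-133b-3p and continued with 1 base that is not in its hairpin. If the shared reads and these 81 were all of miR-133b-3p, it would have 1267 reads, and miR-206-3p would still outnumber it 69.4 to 1 (65.7 to 73.4). miR-133c had 0 reads.

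The ratios between cluster partners were set beside all other neighbouring hairpins of the library. There were 54 pairs of neighbours within 10 kb on the same strand with different mature sequences and at least 1000 reads, end forms included, on 1 of the 2. The higher exceeded the lower by a median of 14.99 times. Mir206 and Mir133b had the second highest ratio of the 54, with pairs under 3 reads on the lower side taken at their lower bound. This rank rests on the 22 reads of miR-133b-3p. It was 6 when forms with another 3′ end were added to both miRNAs, and 17 when the shared reads were given to miR-133b-3p as well and only end forms to miR-206-3p. Mir1a and Mir133a, whose 2 copies of the cluster give the same values, were exceeded by 14 pairs. Both muscle clusters thus lay above the median, but unequal neighbours were common. Small RNAs differ in how well adapters ligate to them, and a ratio of reads is not a ratio of molecules.

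**Figure D3:**
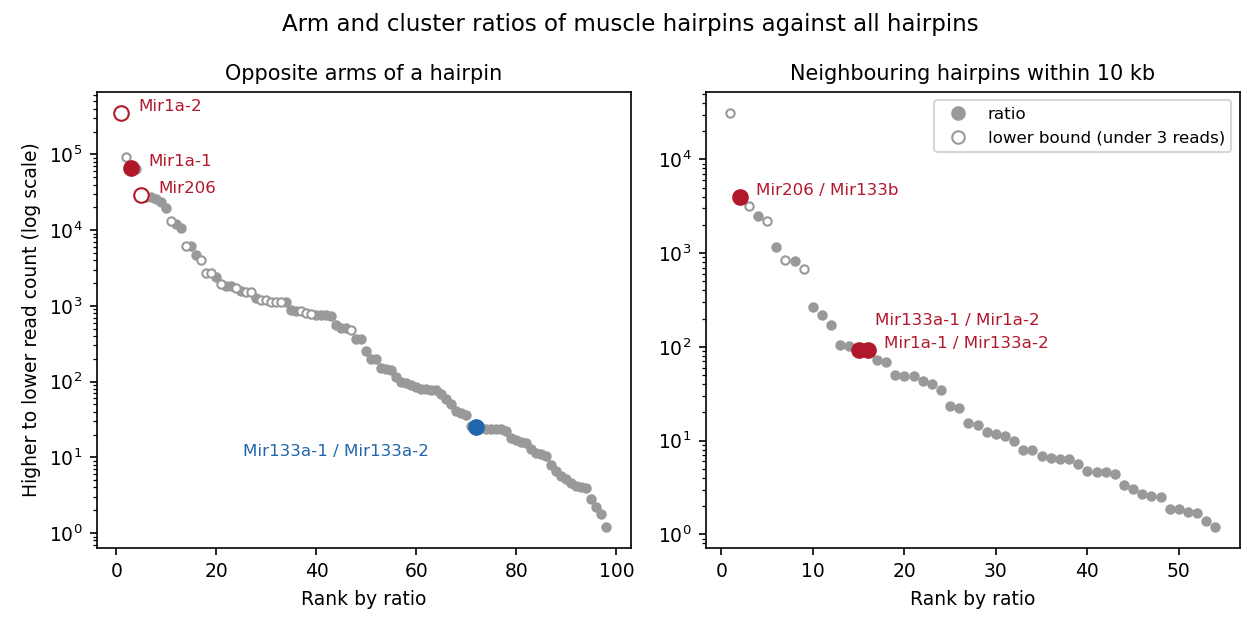
Ratio of the higher to the lower read count with end forms (log axes), ranked, for the 2 arms of 98 hairpins (left) and for 54 pairs of neighbouring hairpins (right). Open points have under 3 reads on the lower side and are lower bounds; the muscle hairpins Mir1a-1, Mir1a-2 and Mir206 are at the upper end on the left, Mir133a is in the lower part, and both copies of Mir1a share the reads of 1 mature sequence.

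The myosin-hosted miRNAs were low. miR-499-5p had 251 reads, or 370 with end forms, at rank 120, between miR-429-3p with 257 and miR-214-5p with 247. miR-208b-3p, from the intron of Myh7, had 6 reads, or 9 with end forms. miR-208a-3p, from the intron of Myh6, had 0 reads by either count. Reads of miR-499-5p outnumbered those of miR-208b-3p 41.8 to 1 (19.0 to 115.1), and were at least 83.7-fold higher than those of miR-208a-3p. The seed of the miR-208 pair was therefore nearly absent at this depth, whereas the related seed of miR-499-5p was present.

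The opposite arms of Mir1a and Mir206 differed from those of Mir133a in another way. With end forms, miR-1a-3p had 66618 reads per read of miR-1a-1-5p (41022 to 116550), and miR-206-3p was at least 29321-fold higher than miR-206-5p. The reads of miR-1a-3p cannot be divided between its 2 copies, whereas miR-1a-1-5p is the arm of 1 copy. miR-133a-3p had only 25.5 reads per read of miR-133a-5p (23.2 to 28.0). miR-499-5p was at least 123-fold higher than miR-499-3p, and miR-133b-3p had too few reads, 22, for a comparison. Over the 98 hairpins with 2 annotated arms and at least 1000 reads on 1 of them, the median was 310 to 1. A ratio above 10000 to 1 was found in 13 hairpins, which include Mir1a-1, Mir1a-2 and Mir206, and 71 hairpins had a larger ratio than Mir133a. An arm ratio is limited by the reads of the main arm, and the 11609 reads of miR-133a-3p could have shown at most 3870 to 1 against the floor of 3 reads.

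End forms differed between members as well, and not by group. The mouse entry held 20 of 22 reads of miR-133b-3p, unlike miR-133a-3p below. For miR-208b-3p it held 6 of 9, and 3 reads were counted for forms with another start. For miR-1a-3p the mouse entry held 92.0% (91.92 to 92.02) of 1065891 reads. A form 1 base shorter at the 3′ end had 41215 reads, and a form 2 bases shorter had 44405. For miR-206-3p the mouse entry held 78.3% (78.00 to 78.55). Its forms in the table are shown with the seed in capitals to make the 3′ variation visible, in the DNA letters of the table.
miR-206-3p mouse entry, 68854 reads: tGGAATGTaaggaagtgtgtgg
miR-206-3p 1 base shorter, 16381 reads: tGGAATGTaaggaagtgtgtg
miR-206-3p 1 base longer, 2729 reads: tGGAATGTaaggaagtgtgtggt
miR-206-3p with G22A, 2049 reads: tGGAATGTaaggaagtgtgtga

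Every one of these forms keeps the seed. The G22A form, counted from 1 at the 5′ end, is not in the hairpin and held 2.89% of the reads of itself and the mouse entry. miR-499-5p showed a like pattern, with 251 reads of the mouse entry, 101 of a form 1 base shorter and 18 of a form 1 base longer. For miR-1a-3p, miR-206-3p and miR-499-5p the table has no entry that lies in the hairpin and starts at another base, so reads with another start could not be seen for them.

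Substitutions in miR-1a-3p were uneven. The table has 5 entries that differ from it by 1 base. T22C had 84470 reads, T22G had 160, A17G had 110, A9T had 12 and A11T had 11. Reads at the T22C form were thus 768 times those at the highest form with an inner substitution, A17G. The cause of the T22C reads was not tested.

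miR-133a was the member whose reads were spread most widely over forms. The mouse entry of miR-133a-3p held 7.88% (7.40 to 8.39) of its 11609 reads, against a median of 77.1% over the 28 arms of the library with at least 10000 reads. A low share was not particular to it. miR-99a-5p was lower at 7.28%, and miR-30d-5p, miR-194-5p and miR-30a-5p held 19.9%, 21.6% and 26.0%. The share also depends on the forms in the table, which were 6 for miR-133a-3p and 3 for miR-1a-3p, mouse entry included. A form with the same start and 1 more base at the 3′ end had 5406 reads, and a form that starts and ends 1 base later had 5049. Forms with the start of the mouse entry made up 55.1% (54.2 to 56.0) and carry the seed UUGGUCC. Forms that start 1 base later made up 44.9% (44.0 to 45.8) and carry bases UGGUCCC in the seed position. A further 4 reads, which start 2 bases later, carry GGUCCCC. Nearly all reads of this arm were thus counted for entries with 2 seeds, while all recorded forms of miR-1a-3p and miR-206-3p share 1 seed. This contrast was fixed by the table, which has no form of miR-1a-3p or miR-206-3p with another start. The counting rule is not given, so whether each read starts at the first base of its entry was not tested.

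Of the 28 arms, 12 have a recorded form with another start, and miR-133a-3p had the highest share of reads on such forms. The next were miR-10a-5p with 26.4% and miR-126a-3p with 11.1%, both named after their values were seen. The median over the 12 arms was 0.0313%, and 8 of them were above 0. The remaining arms have no such entry and could show none. The opposite arm, miR-133a-5p, had 24 reads of its mouse entry and 456 with end forms, so that the mouse entry held 5.26% (3.40 to 7.73). Of these reads, 388 or 85.1% (81.5 to 88.2) were counted for entries that start 1 base before the mouse entry. On both arms of miR-133a the mouse entry therefore described a minority of the reads.

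**Figure D4:**
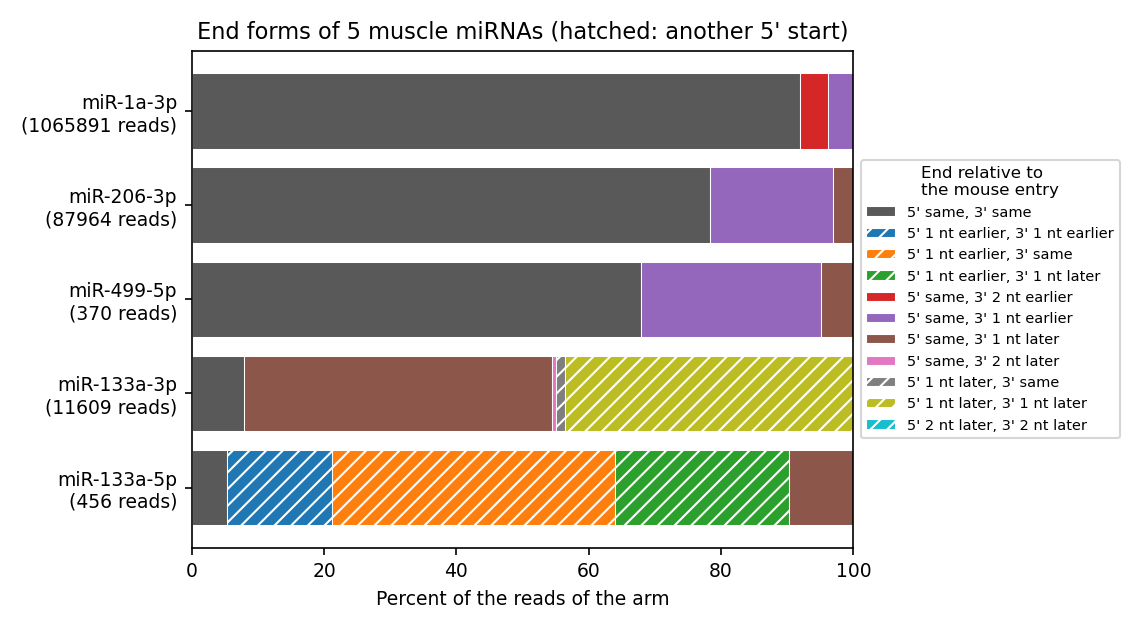
Percent of the reads of an arm by the 5′ start and 3′ end, relative to the mouse entry, of the form they were counted for. The 5 muscle miRNAs are shown with their read totals. miR-1a-3p, miR-206-3p and miR-499-5p vary only at the 3′ end among recorded forms, while hatched forms with another start hold 44.9% of miR-133a-3p and 85.1% of miR-133a-5p.

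Markers of liver and of other cells were read in the same library. The 5 hepatocyte sequences (miR-122-5p, miR-122-3p, miR-192-5p, miR-194-5p and miR-148a-3p) all had reads and held 62.6% of mouse reads. miR-148a-3p alone held 57.9%, and the next of them, miR-122-5p, held 3.54%. The library is from the Cre-miR122 group, and any effect of the miR122 element on miR-122-5p and miR-122-3p was not tested. Smooth muscle and fibroblast sequences held 2.10% and endothelial sequences 0.908%, with reads for 4 of 4 and 2 of 2. A single member led each list, miR-143-3p with 135826 of 139584 reads and miR-126a-3p with 59356 of 60508, and both are also abundant in striated muscle. Red cell sequences held 0.00462% and leukocyte sequences 0.00341%.

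Marker lists of other organs held small shares. The pancreas list held 0.000631% with reads for 3 of 4 sequences, led by miR-375-3p with 39 reads, and miR-216a-5p was at 0. The testis list held 0.00128%, with miR-741-3p and miR-871-3p at 0. The neuron list held 0.0160%, of which miR-128-3p had 1008 of 1066 reads, and the brain miRNA miR-124-3p had 1 read. miR-128-3p is also abundant in striated muscle, and the other 3 neuron sequences had 58 reads, or 0.000871%. miR-1a-3p and miR-206-3p thus stood above the lists of these organs, while the 0.0140% of the miR-133 family was close to the neuron list only through miR-128-3p, and the 0.00386% of the myosin-hosted miRNAs was close to the red cell list. With end forms the miR-133 family, at 0.145%, was above the neuron list at 0.0472%, and the myosin-hosted miRNAs, at 0.00472%, were below the red cell list at 0.0329%. In bulk RNA, the number of cells that carry a miRNA and its amount per cell cannot be told apart, and the part that other cells or tissue had in the miR-1a-3p and miR-206-3p reads was not tested.

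**Figure D5:**
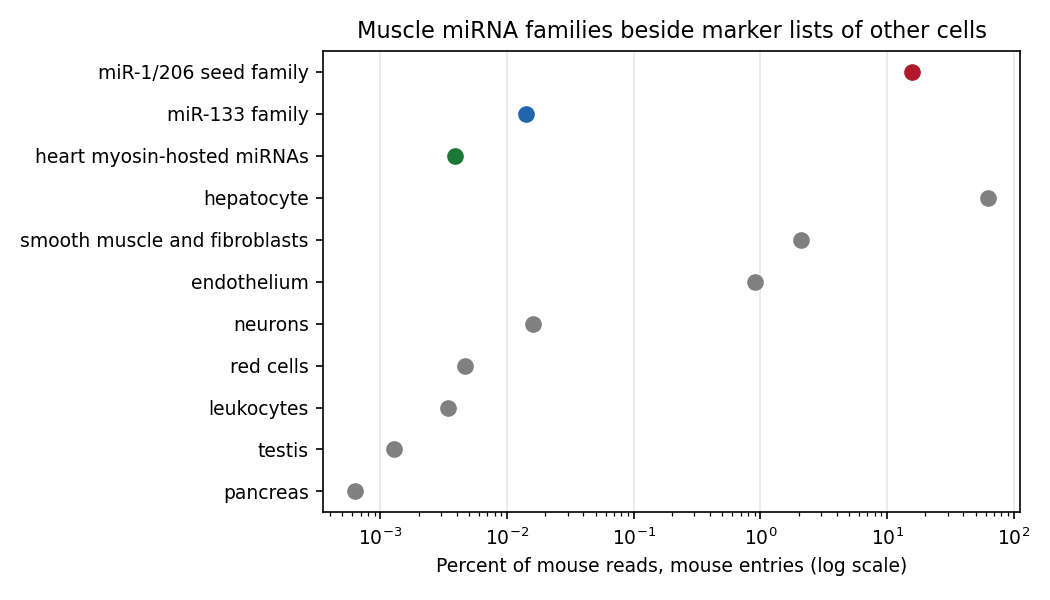
Share of mouse reads (log axis, mouse entries) of the 3 muscle miRNA groups (coloured) and of marker lists of other cells and organs (grey). The miR-1 and miR-206 seed family at 15.75% is below only the hepatocyte list at 62.6%. That list is above the family only through miR-148a-3p, which holds 57.9%. The miR-133 family and the myosin-hosted miRNAs are near the neuron list, which miR-128-3p leads, and the red cell list.

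A wider list held 20 miRNAs that are abundant in striated muscle but not restricted to it. All 19 of its distinct sequences had reads, from 5 for miR-503-5p to 135826 for miR-143-3p, with a median of 2916, and together they held 7.14% of mouse reads, or 10.9% with end forms. miR-378a-3p, from an intron of the metabolic regulator gene Ppargc1b, had 60512 reads, and miR-26a-5p had 78540. The single sequence of miR-486a-5p and miR-486b-5p, abundant in muscle and red cells, had 2549 reads, against 305 of the red cell miRNA miR-451a. With end forms the 2 counts were close, at 3066 and 2635 reads. These miRNAs are also made by liver cells, so their levels do not separate muscle from liver. Of the 19 sequences, 0 had more reads than miR-1a-3p. By mouse entries 2 had more reads than miR-206-3p, namely miR-143-3p and miR-26a-5p, and with end forms 5 did.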

How the data were processed

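Small RNA libraries of mouse liver were made from total RNA with adapters ligated to both ends, PCR and selection of 18 to 40 bp inserts, per the labels' protocols. The authors deposited raw counts of reads per mature miRNA entry, as whole numbers, from the cleaned reads of 1 library, per the file headers. Its header carries the title of Cre-miR122 replicate 2 alone, and 0 columns had no sample. The submitters' processing notes name mm10. The sources used here do not give the counting program, its settings or the miRNA list release.

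Each distinct sequence was counted once, and entries of equal sequence had equal counts (0 exceptions). The 22-nt miR-1a-3p entry had more reads than the 20-nt and 21-nt entries inside it, so a read was not counted for every entry it contains. An end form is another species' entry found exactly in a GENCODE M21 hairpin (GRCm38, the assembly of mm10) that overlaps 1 mouse sequence by at least 15 nt. Forms matching several mouse sequences were given to none. Ends recorded by no entry go unseen. Printed sequences are from RefSeq or the table.

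The members and lists were chosen with earlier results of these data known. Named are all members, the miRNA next above and below each member with at least 100 reads, liver references and the listed miRNAs. With 1 library no test between groups was run. Intervals and end-form assignment were tested only on simulated data with independent reads and forms cut from the same hairpins. PCR copies and bases outside the hairpin were not covered. Alternatives recomputed were end forms, forms whose final 1 or 2 bases are not in the hairpin, the total over all sequences, the total without miR-148a-3p, at least 10 reads and an overlap of 18 nt. Computations used SciPy 1.17.1, NumPy 2.4.6 and pandas 2.3.3 under Python 3.11.15, with figures from matplotlib 3.10.9.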

Additional observations from a re-analysis of the deposited data

Results flagged for a closer look

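Reads counted for entries of other species lie outside the mouse entries of the table, and both sets below exceeded the floor of 3 reads. Entries of the same miRNA names that lie in the members' hairpins had 117147 reads over 23 sequences. Entries of these names found in no mouse hairpin had 86935 reads over 18 sequences, of which 86797 reads match a member's hairpin except for their final 1 or 2 bases.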

How the results depend on the processing

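With end forms added, the share of mouse reads was 14.4% for the miR-1 and miR-206 seed family, 0.145% for the miR-133 family and 0.00472% for the myosin-hosted miRNAs. The 0.145% leaves out the 1164 reads shared by miR-133a-3p and miR-133b-3p. With the total over all sequences the same shares were 12.9%, 0.0115% and 0.00315%, and without miR-148a-3p in the total they were 37.4%, 0.0333% and 0.00916%. These moves follow from the reads each choice adds or removes. The order of the 3 groups was the same under each of these choices, and a minimum of 10 reads moved none of the 3 shares beyond its interval. miR-1a-3p to miR-206-3p gave a ratio of 12.1 with end forms, and 12.8 when forms with another 3′ end were also added. For miR-1a-3p to miR-133a-3p these values were 91.8 and 98.9. The ratio of miR-206-3p to miR-133b-3p fell to 874 when forms with another 3′ end were added, because 81 reads joined the 22 of miR-133b-3p. With such forms the mouse entry held 85.2% of the reads of miR-1a-3p and 76.5% of those of miR-206-3p, while miR-133a-3p and miR-499-5p stayed within their intervals. A stricter overlap of 18 nt changed none of these 4 shares. No paired analysis was possible because the counts come from a single library. Depth limits the members with few reads, such as miR-208b-3p with 6 and miR-1a-1-5p with 13.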
